A study of Mus musculus with 20 samples.

Results

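The genes described here are 37 mouse genes that carry out or control the burning of fatty acids in mitochondria. They comprise 2 genes of fatty acid uptake and binding, 4 of the carnitine shuttle, 10 beta-oxidation enzymes, 3 genes of electron transfer to ubiquinone, 11 citric acid cycle enzymes and 7 regulators of mitochondrial maturation. They were picked by name for their role, with earlier results of these data known, from the 48795 genes of an RNA sequencing table of 20 whole mouse hearts. All 37 were found and all 37 passed the filter on low values, for which 5 or more of the libraries compared had to reach a normalised read count of 10.

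The hearts were taken at E13.5 (counted in days of embryonic development) from 4 groups of 5 embryos on a C57BL/6J background. Dp3Tyb embryos carry the allele Dp(16Mir802-Zbtb21)3TybEmcf and Ts1Rhr embryos the allele Dp(16Cbr1-Fam3b)1Rhr, and in each an extra copy of a stretch of chromosome 16 models part of the trisomy of Down syndrome. The Ts1Rhr stretch lies inside the longer Dp3Tyb stretch. Each strain was compared with its own wild-type (WT) littermates, and a strain with its littermates is called a cohort here. The duplications are present in every cell of the embryo, and none of the 37 genes lies on chromosome 16, so none is itself in 3 copies. The labels of all 5 Dp3Tyb hearts and of Ts1Rhr replicates 1 and 2 name heart defects, whereas those of Ts1Rhr replicates 3 to 5 name none, although the study describes Ts1Rhr embryos as free of heart defects.

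Heart muscle of the adult draws most of its ATP from fatty acids. They enter through the membrane protein CD36, are carried by FABP3, are coupled to carnitine to cross the mitochondrial membranes, and are shortened by cycles of dehydrogenation, hydration, oxidation and thiolysis to acetyl-CoA, which the citric acid cycle oxidises. The embryonic heart relies mostly on glycolysis and turns to fatty acids towards and after birth, a switch driven by the nuclear receptors PPARα and the oestrogen-related receptors (ERR) together with the PGC-1 coactivators.

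Libraries held between 6.60 and 19.6 M reads. In 7 of the 20 libraries over 10% of the reads came from the mitochondrial genome (10.5% to 19.5%), against 4.85% to 7.17% in the other 13. These 7 were WT replicate 5 and Dp3Tyb replicate 5 of the Dp3Tyb cohort, and WT replicates 1, 2 and 4 and Ts1Rhr replicates 1 and 2 of the Ts1Rhr cohort. Counts and medians by subgroup, and the fold changes of the genes described in full, are therefore also given without them, which leaves 4 against 4 hearts in the Dp3Tyb cohort and 2 WT against 3 Ts1Rhr hearts. In the Ts1Rhr group it also removes both hearts labelled with heart defects, so mitochondrial share and that label cannot be told apart there. All 14 cardiomyocyte marker genes examined reached a value of 10 in every library. Their summed level overlapped between mutant and WT hearts, with 351420 to 495802 in Dp3Tyb against 409675 to 574078 in its WT, and 403496 to 548649 in Ts1Rhr against 448469 to 525335 in its WT. By gene, 10 of the 14 lay below WT in Dp3Tyb (median log2 fold change -0.08) and 7 of 14 in Ts1Rhr (median 0.02), while 10 of 10 and 9 of 10 fibroblast and cushion markers lay above WT (medians 0.19 and 0.09). Macrophage markers lay above WT for 8 of 8 in both strains (medians 0.24 and 0.28, with 2 and 4 at an unadjusted p under 0.05) and erythroid markers for 7 of 8 and 8 of 8 (medians 0.15 and 0.29). The lung and foregut markers, of which 7 of 9 passed the filter, lay above WT for 7 of 7 in Dp3Tyb (median 1.86) and below it for 7 of 7 in Ts1Rhr (median -1.76), with 6 of 7 at an unadjusted p under 0.05 for the difference between strains. Their summed level was low in all groups, 106 to 669 in WT and 265 to 955 in Dp3Tyb hearts and 314 to 756 in WT and 152 to 621 in Ts1Rhr hearts. Endothelial markers lay above WT for 4 and 7 of 10 (medians -0.02 and 0.05), epicardial markers for 6 and 7 of 8 (medians 0.02 and 0.07) and liver markers for 1 and 0 of the 2 of 8 that passed the filter. With the 7 libraries left out, erythroid markers lay above WT for 6 and 3 of 8 (medians 0.09 and -0.13), so the median turned in Ts1Rhr. Macrophage markers then did so for 6 and 7 of 8 (medians 0.09 and 0.34), with 2 and 5 at an unadjusted p under 0.05. Fibroblast and cushion markers did so for 10 and 8 of 10 (medians 0.16 and 0.11), with 4 and 2 at that level. Endothelial markers did so for 5 and 6 of 10 (medians -0.0037 and 0.02) and epicardial markers for 8 and 7 of 8 (medians 0.07 and 0.07). Cardiomyocyte markers lay below WT for 10 and 9 of 14 (medians -0.08 and -0.06), with 0 and 2 at an unadjusted p under 0.05, against 0 and 1 with all libraries. The lung and foregut markers lay above WT for 7 of 7 in Dp3Tyb (median 1.52). In Ts1Rhr 1 of them (log2 fold change -0.04) and 0 liver markers passed the filter. Of the lung and foregut markers, 0 of 7 had an unadjusted p under 0.05 for the difference between strains. None of these markers passed the limma test with or without those libraries. Without them that test called 30 of 14571 genes in Dp3Tyb and 0 of 13929 in Ts1Rhr. An unadjusted limma p under 0.05 was then found for 1175 and 496 of these genes. The part of such cells in the levels given here was not tested. In whole hearts, a smaller share of cardiomyocytes and less RNA per cardiomyocyte cannot be told apart.

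None of the 37 genes passed the test in either strain. The test was limma on log2(value + 1) with Benjamini-Hochberg adjustment over all genes and a threshold of 0.05, which called 0.0542% of 14763 genes in Dp3Tyb hearts and 0.0269% of 14867 genes in Ts1Rhr hearts. Without adjustment, 0 of the 37 genes had p under 0.05 against WT for Dp3Tyb (2.8% of all genes) and 0 of the 37 for Ts1Rhr (5.52% of all genes). DESeq2 and edgeR on the whole reads recovered from the table also called 0 of the 37 genes in each cohort, of 34 and 9 genes called in Dp3Tyb and 25 and 4 in Ts1Rhr. The values of mutant and WT hearts overlapped for all 37 genes in both cohorts. Over all genes, the groups did not overlap for 0.975% in Dp3Tyb and 1.12% in Ts1Rhr.

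In Dp3Tyb hearts 27 of the 37 genes had a mean below that of the WT hearts (51.1% of all genes did), and the median log2 fold change of the 37 was -0.05, against -0.0027 over all genes tested. In Ts1Rhr hearts 14 of the 37 lay below WT (50.4% of all genes) and the median was 0.04, against -0.0016 over all genes. A shift of this size is smaller than the spread between hearts of 1 group, whose mean over the 37 genes varied with an SD of 0.10 on the log2 scale. Without the 7 libraries rich in mitochondrial reads the medians were -0.03 in Dp3Tyb (24 of 37 below WT) and -0.05 in Ts1Rhr (25 of 37 below WT), so the small excess in Ts1Rhr changed sign.

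The precision of the comparison can be read from the 95% intervals of the fold changes. In each cohort the interval lay inside a 2-fold change in either direction for all 37 genes and inside a 1.5-fold change for 34 genes. The exceptions at 1.5-fold were Acads, Ppargc1a and Esrra in Dp3Tyb and Acads, Ppara and Esrra in Ts1Rhr. The interval lay inside a 1.25-fold change for 20 genes in Dp3Tyb and 21 in Ts1Rhr.

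**Figure D1:**
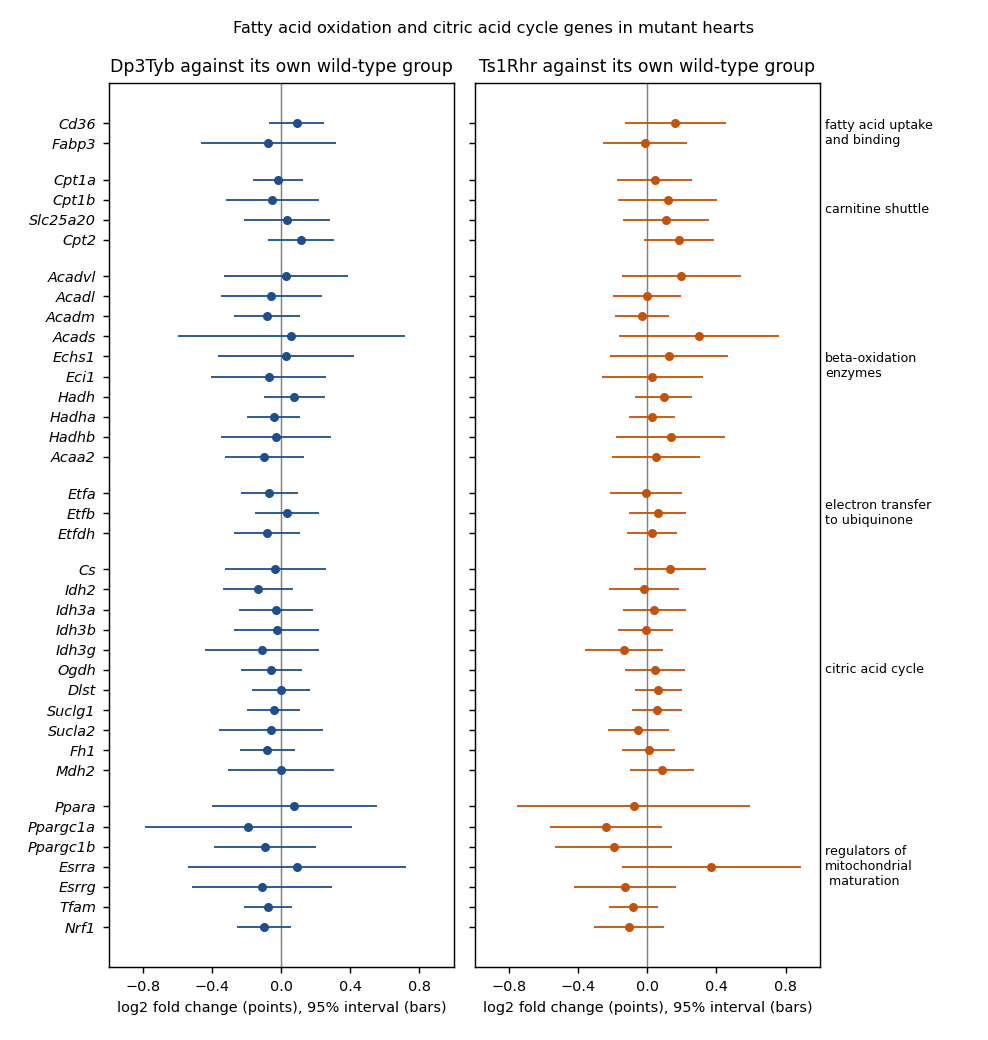
Log2 fold change of each of the 37 genes in Dp3Tyb hearts (left) and Ts1Rhr hearts (right) against WT littermates, 5 hearts per group, with the 95% interval of limma as a bar and 0 as a grey line. Every interval crosses 0, and the widest bars belong to Acads, Esrra, Ppargc1a and Ppara.

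Levels of different genes were compared as normalised read counts per kb of the canonical transcript. The order of the mean levels over the 20 hearts ran from Idh2 at 6729 to Ppara at 15.5 per kb. Idh2 was followed by Fabp3 (3443), Mdh2 (3417), Cs (2910) and Acadl (2228), whose ranges over hearts overlapped from each to the next below Idh2. Idh2 stood apart, since its lowest heart (5617) exceeded the highest heart of any other gene (4909 for Fabp3). The 7 regulators occupied ranks 28 and 31 to 37 of the order together with Cpt1a at rank 34.

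**Figure D2:**
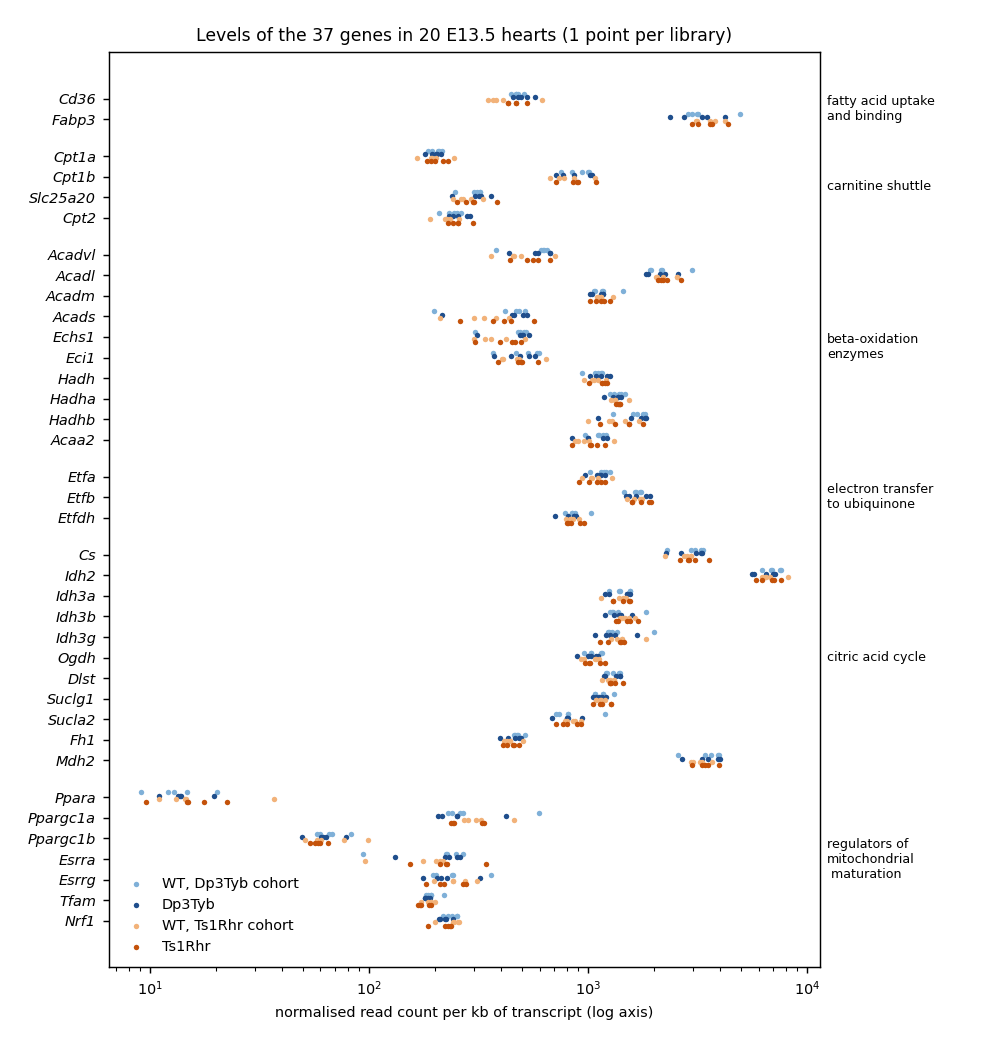
Normalised read count per kb of transcript (log axis) of the 37 genes in each of the 20 hearts, with 1 point per library, coloured by group and ordered by the step of the pathway. Mutant and WT hearts overlap for every gene, Idh2 is highest and Ppara lowest.

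Fatty acid uptake and binding was represented by Fabp3, the cytosolic fatty acid binding protein of heart muscle, and Cd36, the fatty acid translocase of the plasma membrane. With all libraries 1 of the pair lay below WT in each strain (medians 0.0064 in Dp3Tyb and 0.07 in Ts1Rhr). Without the libraries rich in mitochondrial reads 1 of 2 did in Dp3Tyb and 2 of 2 in Ts1Rhr (medians 0.04 and -0.08). Fabp3 was expressed at 3443 per kb and Cd36 at 467 per kb. Fabp3 read 2454, 2614, 2342, 2575 and 4040 in the WT hearts and 2255, 2728, 2876, 1951 and 3481 in the Dp3Tyb hearts in the Dp3Tyb cohort, each list in the order of replicates 1 to 5, as in all lists that follow. Replicate 5 was the highest heart of either group, and the other 4 of each group overlapped (log2 fold change -0.08, SE 0.18). In the Ts1Rhr cohort Fabp3 read 2977, 2588, 2553, 3476 and 3136 in the WT hearts and 3572, 2967, 3016, 2450 and 2615 in the Ts1Rhr hearts, again with overlapping groups (log2 fold change -0.01, SE 0.11).

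Cd36 had the larger fold change of the pair in both cohorts. It read 1648, 1673, 1643, 1560 and 1782 in the WT hearts and 1678, 1848, 2006, 1599 and 1723 in the Dp3Tyb hearts in the Dp3Tyb cohort (log2 fold change 0.09, SE 0.07) and 1337, 1221, 1430, 1292 and 2155 in the WT hearts and 1642, 1507, 1504, 1649 and 1852 in the Ts1Rhr hearts in the Ts1Rhr cohort (log2 fold change 0.16, SE 0.14). Dp3Tyb replicate 3 was the highest heart of the first cohort. In the second, WT replicate 5 exceeded every Ts1Rhr heart, whereas the other 4 WT hearts lay below all Ts1Rhr hearts, and without the libraries rich in mitochondrial reads the log2 fold change of Cd36 turned to -0.08. That same WT heart had the highest summed level of the 8 erythroid markers of all libraries (173494, against 26389 to 133271 in the others), and the part of this in its Cd36 value was not tested.

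The carnitine shuttle comprises Cpt1a and Cpt1b, the liver and muscle forms of carnitine palmitoyltransferase 1 that commit fatty acids to oxidation, Slc25a20, the carrier that exchanges acylcarnitine for carnitine across the inner membrane, and Cpt2, which returns the acyl group to coenzyme A in the matrix. In Dp3Tyb 2 of the 4 lay below WT with or without the libraries rich in mitochondrial reads (medians 0.0065 and 0.0050). In Ts1Rhr these were 0 of 4 with and 2 of 4 without them (medians 0.11 and 0.02). The muscle form was the more abundant in every heart, with a Cpt1b to Cpt1a ratio per kb of 3.31 to 5.46 (median 4.43). The ratio averaged 4.50 ± 0.298 in WT and 4.43 ± 0.656 in Dp3Tyb hearts, and 4.14 ± 0.563 in WT and 4.38 ± 0.754 in Ts1Rhr hearts (SD, n = 5 each). These differences are smaller than the SD within any of the groups compared.

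Cpt1b read 2580, 3044, 2866, 3081 and 2308 in the WT hearts and 2638, 3165, 3129, 2337 and 2187 in the Dp3Tyb hearts in the Dp3Tyb cohort and 2045, 2367, 2636, 2245 and 3281 in the WT hearts and 2729, 2180, 3330, 2733 and 2613 in the Ts1Rhr hearts in the Ts1Rhr cohort. Cpt1a read 1277, 1415, 1371, 1362 and 1218 in the WT hearts and 1189, 1403, 1335, 1347 and 1276 in the Dp3Tyb hearts in the former and 1336, 1088, 1276, 1263 and 1610 in the WT hearts and 1217, 1258, 1318, 1427 and 1515 in the Ts1Rhr hearts in the latter. Both genes overlapped fully between mutant and WT hearts, with log2 fold changes of -0.05 (SE 0.12) and 0.12 (SE 0.13) for Cpt1b and -0.02 (SE 0.07) and 0.04 (SE 0.10) for Cpt1a. In the annotation used here a predicted same-strand gene, Gm44502, covers 2744 bases of Cpt1b exons, but it is not among the genes of the table used here.

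Cpt2 had the largest fold change of the shuttle in both strains. It read 494, 580, 599, 627 and 549 in the WT hearts and 552, 685, 666, 576 and 606 in the Dp3Tyb hearts in the Dp3Tyb cohort (log2 fold change 0.11, SE 0.09) and 538, 527, 554, 452 and 615 in the WT hearts and 602, 548, 712, 607 and 574 in the Ts1Rhr hearts in the Ts1Rhr cohort (log2 fold change 0.18, SE 0.09, adjusted p = 0.795 by limma). Its mean was higher in the mutant hearts of both strains, the groups overlapped, and its unadjusted limma p of 0.0762 in Ts1Rhr was the smallest of any of the 37 genes. Slc25a20 differed by 0.03 (SE 0.11) in Dp3Tyb and 0.11 (SE 0.11) in Ts1Rhr on the log2 scale.

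The 10 beta-oxidation enzymes comprise the acyl-CoA dehydrogenases for chains of decreasing length (Acadvl, Acadl, Acadm and Acads), the enoyl-CoA hydratase Echs1, the isomerase Eci1, the hydroxyacyl-CoA dehydrogenase Hadh, both subunits of the trifunctional protein that handles long chains (Hadha and Hadhb) and the thiolase Acaa2. In Dp3Tyb hearts 6 of the 10 lay below WT, with a median log2 fold change of -0.04, and in Ts1Rhr hearts 2 of the 10 did, with a median of 0.07. Without the libraries rich in mitochondrial reads the counts were 6 and 5 of 10 and both medians were -0.02. Acadl, the long-chain dehydrogenase, was the most abundant at 2228 per kb, and among the dehydrogenases it was followed by Acadm (1146), Acadvl (554) and Acads (397), the last 2 overlapping over hearts.

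Acadl read 4792, 5430, 4816, 5380 and 7405 in the WT hearts and 4675, 5312, 5594, 4574 and 6439 in the Dp3Tyb hearts in the Dp3Tyb cohort, and 5485, 5164, 5112, 6377 and 6348 in the WT hearts and 6647, 5738, 5485, 5348 and 5208 in the Ts1Rhr hearts in the Ts1Rhr cohort. The highest heart was WT replicate 5 of the Dp3Tyb cohort, and the group means were almost equal (log2 fold change -0.06, SE 0.13 in Dp3Tyb, log2 fold change -0.0018, SE 0.09 in Ts1Rhr). Acaa2, the thiolase of the last step, had the largest fold change of the enzymes in Dp3Tyb. It read 1935, 2107, 1954, 2041 and 1688 in the WT hearts and 1741, 2126, 2051, 1742 and 1480 in the Dp3Tyb hearts there (log2 fold change -0.10, SE 0.10) and 1677, 1529, 1759, 1566 and 2288 in the WT hearts and 1792, 1476, 2093, 1805 and 1918 in the Ts1Rhr hearts in the Ts1Rhr cohort (log2 fold change 0.05, SE 0.12). Mutant and WT hearts overlapped in both. Without the libraries rich in mitochondrial reads Eci1 (-0.09) exceeded Acaa2 (-0.07) in size in Dp3Tyb.

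Acads, the short-chain dehydrogenase, had the largest fold change of these enzymes in Ts1Rhr and the largest SE of the 37 genes in Dp3Tyb. It read 563, 628, 709, 392 and 812 in the WT hearts and 687, 485, 1056, 835 and 770 in the Ts1Rhr hearts in the Ts1Rhr cohort (log2 fold change 0.30, SE 0.21, adjusted p = 0.795 by limma). In the Dp3Tyb cohort it read 780, 906, 877, 962 and 370 in the WT hearts and 838, 942, 988, 857 and 403 in the Dp3Tyb hearts (log2 fold change 0.06, SE 0.30). Ts1Rhr replicate 3 was the highest of all 20 hearts, and the 7 lowest hearts were exactly the 7 libraries with over 10% mitochondrial reads, of which 4 were WT and 3 mutant. Leaving out 1 heart gave 0.15 to 0.45 in Ts1Rhr on the log2 scale, the lowest without WT replicate 4.

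Electron transfer flavoprotein, made of the subunits Etfa and Etfb, takes the electrons of the acyl-CoA dehydrogenases, and Etfdh passes them to ubiquinone. In Dp3Tyb 2 of the 3 lay below WT with or without the libraries rich in mitochondrial reads (medians -0.07 and -0.02). In Ts1Rhr these were 1 of 3 with and 3 of 3 without them (medians 0.03 and -0.07). Etfb was the most abundant of the 3 at 1689 per kb. It read 1469, 1559, 1475, 1546 and 1304 in the WT hearts and 1470, 1704, 1645, 1377 and 1336 in the Dp3Tyb hearts in the Dp3Tyb cohort (log2 fold change 0.03, SE 0.08) and 1349, 1533, 1578, 1453 and 1562 in the WT hearts and 1734, 1417, 1686, 1552 and 1412 in the Ts1Rhr hearts in the Ts1Rhr cohort (log2 fold change 0.06, SE 0.08). Etfdh read 1884, 2101, 2028, 2048 and 2478 in the WT hearts and 1947, 2119, 2089, 1711 and 2085 in the Dp3Tyb hearts in the Dp3Tyb cohort (log2 fold change -0.08, SE 0.09) and 1910, 2025, 2066, 2004 and 2198 in the WT hearts and 2303, 2018, 2210, 1927 and 1960 in the Ts1Rhr hearts in the Ts1Rhr cohort (log2 fold change 0.03, SE 0.07). All groups of Etfb and Etfdh overlapped, and Etfa differed by -0.07 (SE 0.08) in Dp3Tyb and -0.01 (SE 0.10) in Ts1Rhr. Reads of Etfb cannot be told with certainty from those of Etfbl, which shares 617 bases of exon on the same strand. Nor can reads of Etfdh be told from those of the opposite-strand gene Ppid (609 bases). For Ppid this is because no source used here says whether counting was by strand.

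All 11 citric acid cycle enzymes had a log2 fold change below 0 in Dp3Tyb hearts, between -0.14 for Idh2 and -0.0004 for Mdh2, with a median of -0.05. None passed the test, and 10 of 14 cardiomyocyte markers also lay below WT in these hearts, the part of which was not tested. Without the libraries rich in mitochondrial reads 7 of the 11 lay below WT, with a median of -0.03. In Ts1Rhr hearts 4 of the 11 lay below WT and the median was 0.04, which became 7 of 11 and -0.03 without those libraries. The order of the levels was Idh2, Mdh2, Cs and then, within a narrower band, Idh3b (1442 per kb), Idh3a (1408), Idh3g (1381), Dlst (1290), Suclg1 (1148) and Ogdh (1045), whose ranges over hearts overlapped between neighbours. Sucla2 (830) and Fh1 (455) had lower means, though the range of Sucla2 over hearts (680 to 1188) overlapped that of Ogdh (892 to 1189).

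Idh2, the mitochondrial isocitrate dehydrogenase that yields NADPH, read 11961, 13151, 12030, 13217 and 10887 in the WT hearts and 11307, 12490, 12263, 10029 and 9818 in the Dp3Tyb hearts in the Dp3Tyb cohort (log2 fold change -0.14, SE 0.09, adjusted p = 1.0 by limma). Its mean was 12249 ± 967 in WT and 11182 ± 1233 in Dp3Tyb hearts (SD, n = 5 each), with 3 of the 5 Dp3Tyb hearts inside the WT range and replicates 4 and 5 below it. In the Ts1Rhr cohort it read 11298, 11174, 11854, 10894 and 14240 in the WT hearts and 12328, 10164, 13298, 12014 and 10842 in the Ts1Rhr hearts (log2 fold change -0.02, SE 0.09). The unadjusted limma p of 0.167 was the smallest of the 37 genes in Dp3Tyb.

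Idh3g is the regulatory gamma subunit of the isocitrate dehydrogenase that yields NADH, whose catalytic alpha subunit is Idh3a and whose beta subunit is Idh3b. It read 1950, 2015, 1967, 2128 and 3142 in the WT hearts and 1896, 1983, 2096, 1684 and 2631 in the Dp3Tyb hearts in the Dp3Tyb cohort (log2 fold change -0.11, SE 0.15) and 2256, 2137, 1994, 2904 and 2248 in the WT hearts and 2236, 2301, 2198, 1935 and 1793 in the Ts1Rhr hearts in the Ts1Rhr cohort (log2 fold change -0.14, SE 0.10), the largest fold change of the cycle in Ts1Rhr. The highest hearts were replicate 5 of both Dp3Tyb cohort groups and WT replicate 4 of the Ts1Rhr cohort, the 3 libraries with the most mitochondrial reads. The Idh3g to Idh3a ratio per kb ran from 0.801 to 0.964 in the 13 libraries poor in mitochondrial reads and from 0.928 to 1.61 in the 7 rich ones, and the Idh3b to Idh3a ratio from 0.833 to 1.02 and from 1.02 to 1.48. Idh3a shares 1106 bases of exon with the opposite-strand gene Acsbg1. The remaining enzymes are citrate synthase (Cs), the oxoglutarate dehydrogenase components Ogdh and Dlst, the succinyl-CoA ligase subunits Suclg1 and Sucla2, fumarase (Fh1) and malate dehydrogenase (Mdh2), and their log2 fold changes lay between -0.08 (Fh1) and -0.0004 (Mdh2) in Dp3Tyb and between -0.05 (Sucla2) and 0.13 (Cs) in Ts1Rhr.

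The 7 regulators include the fatty acid sensing receptor Ppara, the coactivators Ppargc1a and Ppargc1b (PGC-1α and PGC-1β) and the oestrogen-related receptors Esrra and Esrrg. The others are Tfam, which packages mitochondrial DNA and helps to start its transcription, and Nrf1, an activator of nuclear genes for respiration. In Dp3Tyb hearts 5 of the 7 lay below WT (median log2 fold change -0.10) and in Ts1Rhr hearts 6 of the 7 did (median -0.11). Without the libraries rich in mitochondrial reads 6 of the 7 lay below WT in each strain, with medians of -0.10 and -0.12. None passed the test with or without those libraries. Without them Ppargc1a in Ts1Rhr had an unadjusted limma p under 0.05, as did 496 of 13929 genes. In that fit the adjusted test called 0 genes of the whole table.

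Ppargc1a had the highest mean level of the regulators over the 20 hearts, at 298 per kb. Its range over hearts (206 to 596) overlapped those of Esrrg (176 to 358) and Esrra (93.6 to 343), among others. It read 1542, 1729, 1484, 1679 and 3852 in the WT hearts and 1391, 1621, 1622, 1330 and 2718 in the Dp3Tyb hearts in the Dp3Tyb cohort (log2 fold change -0.19, SE 0.27), the largest fold change of the 37 genes in that strain. Both replicates 5 stood far above the rest, WT more so than Dp3Tyb, and without WT replicate 5 the log2 fold change was 0.06. In the Ts1Rhr cohort Ppargc1a read 1833, 2095, 1748, 2949 and 1984 in the WT hearts and 2168, 2120, 1527, 1559 and 1575 in the Ts1Rhr hearts (log2 fold change -0.24, SE 0.15, adjusted p = 0.795 by limma). Leaving out WT replicate 4 gave -0.11 in Ts1Rhr. Without the libraries rich in mitochondrial reads the log2 fold changes were -0.11 in Dp3Tyb and -0.26 in Ts1Rhr. In Dp3Tyb Ppargc1a was then no longer the largest of the 37, as Ppargc1b (-0.14), Idh2 (-0.13) and Cd36 (0.12), among others, exceeded it in size.

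Esrra, which encodes ERRα, had the largest fold change of the 37 genes in Ts1Rhr. It read 400, 457, 475, 216 and 490 in the WT hearts and 505, 348, 773, 511 and 477 in the Ts1Rhr hearts there (log2 fold change 0.37, SE 0.24, adjusted p = 0.795 by limma). Ts1Rhr replicate 3 was the highest heart and WT replicate 4 the lowest, and the other 8 hearts overlapped. Leaving out 1 heart gave log2 fold changes of 0.16 to 0.50, the lowest without WT replicate 4, and without the libraries rich in mitochondrial reads Ppara (-0.35) exceeded Esrra (0.25) in size. In the Dp3Tyb cohort Esrra read 515, 561, 508, 606 and 211 in the WT hearts and 502, 585, 570, 521 and 295 in the Dp3Tyb hearts (log2 fold change 0.09, SE 0.29), with replicate 5 of each group the lowest. Esrra shares 1479 bases of exon with the opposite-strand gene Trmt112, so its reads are uncertain.

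Of the other regulators, Esrrg (ERRγ), Tfam and Nrf1 lay below WT in both strains, with log2 fold changes of -0.11 and -0.13 for Esrrg (SE 0.18 and 0.13), -0.08 and -0.08 for Tfam (SE 0.06 and 0.06) and -0.10 and -0.11 for Nrf1 (SE 0.07 and 0.09) in Dp3Tyb and Ts1Rhr, respectively. Ppargc1b differed by -0.10 (SE 0.13) and -0.20 (SE 0.16). Ppara, at 15.5 per kb the lowest of the 37 genes, ranged from 32.3 to 130 normalised reads and its highest heart was WT replicate 5 of the Ts1Rhr cohort, followed by Ts1Rhr replicate 5 at 79.7.

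The binding sequences of these regulators were searched for in the 250 bases before each start listed for a gene, on both strands, in the RefSeq promoter table of GRCm38.p6, which held 33 of the 37 genes and 27025 genes in all. Some genes have several starts, and a gene was counted if any of its windows held the letters. The ERR element TCAAGGTCA occurred in 0 of the 33 genes (0.422% of all), and the PPAR element AGGTCANAGGTCA, which repeats the half-site AGGTCA within the ERR element, in 0 of 33 (0.0407% of all). The NRF1 site GCGCATGCG occurred in 4 of 33 (12.1%, against 1.64% of all genes), namely Acadm, Etfdh, Ogdh and Ppara. All 33 passed the filter on low values, whereas the 27025 include genes that did not. The GC-rich letters GGGCGG also occurred more often in the 33 genes (69.7%) than in all genes (35.4%). The part of either in the share of NRF1 sites was not tested. The sites of Ogdh and Ppara precede a start that lies inside the span RefSeq gives for the gene, whereas those of Acadm and Etfdh lie outside it. The 49 bases around the latter are printed here because NRF1 is itself 1 of the 37 genes. They lie at chr3:153944774-153944822 and chr3:79628867-79628915, both read on the minus strand, and capitals mark the site on either strand.
Acadm: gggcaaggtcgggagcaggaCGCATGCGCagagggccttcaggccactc
Etfdh: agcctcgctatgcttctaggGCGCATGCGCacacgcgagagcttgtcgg
In Dp3Tyb hearts these 4 genes differed from WT by -0.08, -0.08, -0.06 and 0.08 on the log2 scale, and in Ts1Rhr hearts by -0.03, 0.03, 0.04 and -0.08, in the order Acadm, Etfdh, Ogdh and Ppara. A match to these letters is a description of the window and was not tested as a binding site.

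Whether the difference from WT was the same in both strains was asked as an interaction, fitted with limma to the 20 libraries together. It called 0 of the 37 genes (0.013% of 15348 genes), and 0 had an unadjusted p under 0.05 (1.52% of all genes). For 30 of the 37 genes the difference from WT was lower in Dp3Tyb than in Ts1Rhr (49.6% of all genes), with a median of -0.07 on the log2 scale. This median was -0.12 without WT replicate 5 of the Ts1Rhr cohort, and -0.04 without either Ts1Rhr replicate 3 or Dp3Tyb replicate 4. The difference was lower in Dp3Tyb for 2 of 2 genes of uptake, 4 of 4 of the shuttle, 10 of 10 beta-oxidation enzymes, 3 of 3 genes of electron transfer, 10 of 11 citric acid cycle enzymes and 1 of 7 regulators. Leaving out the libraries rich in mitochondrial reads, these counts were 0 of 2, 3 of 4, 6 of 10, 0 of 3, 7 of 11 and 3 of 7. In all it was so for 19 of the 37, with a median of -1.04e-05. The largest single differences were -0.28 for Esrra (SE 0.40) and -0.24 for Acads (SE 0.39), the genes with the widest spread between hearts.

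On the log2 scale the SD within the groups of a cohort exceeded the difference between genotypes for 36 of the 37 genes in each cohort, the exceptions being Nrf1 in Dp3Tyb and Cpt2 in Ts1Rhr. Many of the genes differed with the share of mitochondrial reads. In the 7 libraries rich in mitochondrial reads, 25 of the 37 genes had a lower mean than in the other 13 (52.3% of all genes did), and the differences ran from -0.82 for Acads to 0.63 for Ppargc1a on the log2 scale. Genes of the same step lay on opposite sides. The lower genes were led by Acads, Esrra (-0.71), Echs1 (-0.57), Acadvl (-0.51), Ppara (-0.49) and Hadhb (-0.49). The higher genes were Ppargc1a, Esrrg (0.46), Fabp3 (0.35), Idh3g (0.33), Sucla2 (0.29), Idh3b (0.25) and Acadl (0.23). Hadha, Suclg1, Acadm, Etfdh and Tfam differed by between 0.01 and 0.07. These libraries were set apart by their mitochondrial reads, so no test was made between them, and the cause of the split was not tested.

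The 7 rich and 13 poor libraries did not overlap for 6 of the 37 genes. Acads ranged over 370 to 687 (median 485) in the rich and 709 to 1056 (median 857) in the poor libraries, and Echs1 over 704 to 923 (median 727) and 987 to 1261 (median 1157). Hadhb and Slc25a20 were likewise lower in every rich library, and Sucla2 and Esrrg higher in every one. For Esrrg the rich libraries ranged over 1283 to 1897 (median 1466) and the poor over 934 to 1282 (median 1121). Over all genes tested, 6.47% were lower and 8.42% higher without overlap, against 10.8% and 5.41% of the 37. Both cohorts showed the split, with a difference for Acads of -1.21 in the Dp3Tyb and -0.62 in the Ts1Rhr cohort, and for Ppargc1a of 1.07 and 0.40. Leaving the rich libraries out narrowed the SD of Acads within groups from 0.48 to 0.16 and that of Ppargc1a from 0.40 to 0.11 on the log2 scale. The difference went with the GC content of the transcript (Pearson's r = -0.47 over the 37 genes and -0.37 over 15217 genes, all measured in the same libraries), with Acads at 60.1% and Esrra at 61.8% GC among the lower genes and Ppargc1a at 41.7% and Esrrg at 42.7% among the higher. Other genes did not follow it. Cd36 had the lowest GC content (38.7%) and a difference of -0.19. Hadhb (45.5%) was among the lower genes and Fabp3 (53.9%) among the higher.

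**Figure D3:**
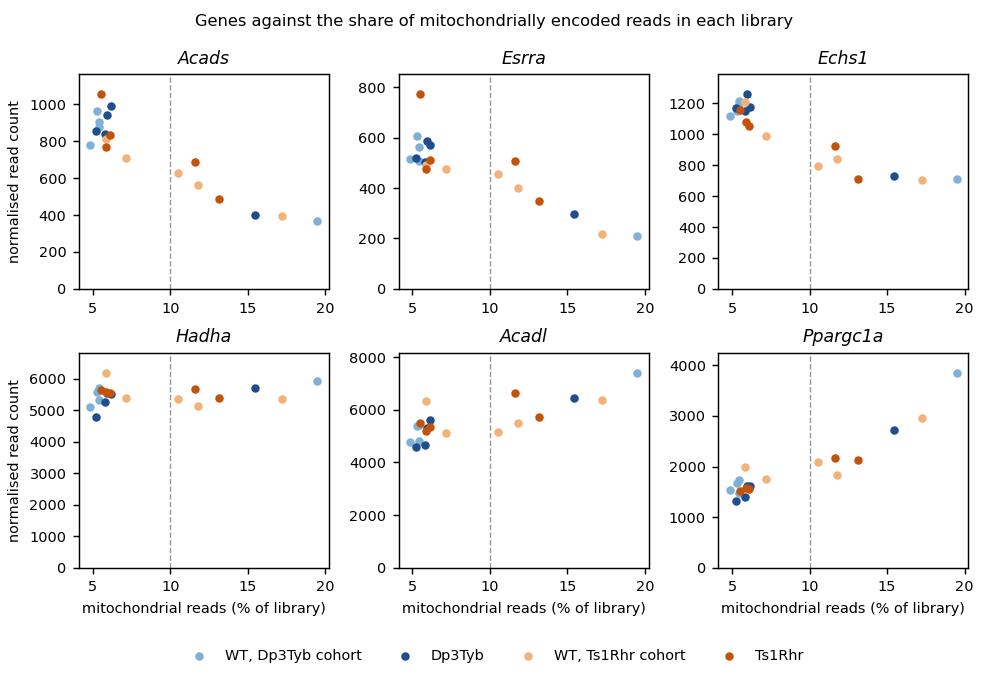
Normalised read count of Acads, Esrra, Echs1, Hadha, Acadl and Ppargc1a (vertical axes from 0) against the percentage of mitochondrial reads in each of the 20 libraries, coloured by group, with a dashed line at 10%. Acads, Esrra and Echs1 are lower to the right of the line, Ppargc1a and Acadl higher, and Hadha level, with mutant and WT hearts mixed on both sides.

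Hadhb followed this split and Hadha did not, although they encode the alpha and beta subunits of 1 enzyme and their genes as RefSeq gives them start back to back, with 272 bases between them (chr5:30119423-30154980 on the minus strand and chr5:30155253-30184593 on the plus strand, GRCm38.p6). The 250 bases before the start of Hadhb, chr5:30155003-30155252, all lie in that interval. They are printed along the plus strand, with capitals marking the GC box GGGCGG, searched on both strands, which occurs in 69.7% of the 33 genes and 35.4% of all genes.
Hadhb: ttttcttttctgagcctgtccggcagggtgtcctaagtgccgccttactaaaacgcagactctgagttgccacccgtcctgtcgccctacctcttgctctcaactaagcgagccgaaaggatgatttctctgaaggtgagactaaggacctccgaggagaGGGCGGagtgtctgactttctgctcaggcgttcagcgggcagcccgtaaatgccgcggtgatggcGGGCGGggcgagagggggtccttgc
Hadha read 5098, 5704, 5314, 5564 and 5934 in the WT hearts and 5268, 5537, 5498, 4791 and 5694 in the Dp3Tyb hearts in the Dp3Tyb cohort, and 5123, 5342, 5375, 5350 and 6182 in the WT hearts and 5671, 5396, 5648, 5543 and 5558 in the Ts1Rhr hearts in the Ts1Rhr cohort. Hadhb read 3263, 3628, 3401, 3678 and 2634 in the WT hearts and 3530, 3740, 3700, 3181 and 2256 in the Dp3Tyb hearts in the former and 2520, 2605, 2992, 2027 and 3460 in the WT hearts and 2691, 2312, 3613, 3121 and 3133 in the Ts1Rhr hearts in the latter. Hadha was highest in WT replicate 5 of the Ts1Rhr cohort and overlapped between rich and poor libraries, whereas Hadhb was lower in each of the 7 rich libraries than in any other. Per kb, the Hadhb to Hadha ratio lay between 1.11 and 1.34 (median 1.27) in the 13 poor libraries and between 0.753 and 0.977 (median 0.882) in the 7 rich ones. By genotype it ran from 0.882 to 1.31 in WT and 0.787 to 1.34 in Dp3Tyb hearts, and from 0.753 to 1.11 in WT and 0.851 to 1.27 in Ts1Rhr hearts, so the groups overlapped. The opposite-strand gene Garem2 shares 1918 bases of exon with Hadha. In the GENCODE annotation Hadha and Hadhb also share 932 bases of exon with each other on opposite strands, though 0 between their canonical transcripts. Reads in these stretches are uncertain, and so is the ratio as far as it rests on them.

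**Figure D4:**
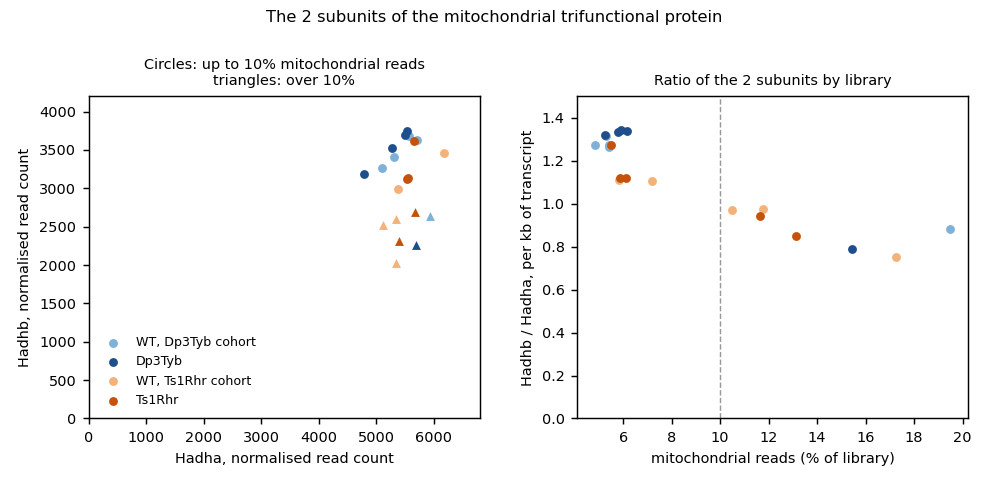
Left, normalised read count of Hadhb against Hadha in each library, with triangles for the 7 libraries over 10% mitochondrial reads. Right, the Hadhb to Hadha ratio per kb of transcript against the percentage of mitochondrial reads, with a dashed line at 10%, where all libraries to the right lie below 1 and all to the left above 1.

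How far genes varied together from heart to heart differed between steps and between sets of libraries. Over deviations from the group mean in the 13 poor libraries, the median Pearson correlation of pairs of genes was 0.85 among the beta-oxidation enzymes, 0.85 among the citric acid cycle enzymes, 0.56 for the pair of uptake, 0.52 in the shuttle, 0.53 in electron transfer and 0.14 among the regulators. Over all 666 pairs of the 37 genes it was 0.67. Over all 20 libraries it was 0.80, 0.51, 0.23, 0.57, 0.33 and -0.07 in the same order, against 0.38 over all pairs. Single pairs reached down to -0.64 among the beta-oxidation enzymes and -0.67 among those of the cycle. These libraries share normalisation and tissue makeup, and the values describe these hearts only. The correlations that follow are of library means without the group means taken out. The mean of the citric acid cycle enzymes followed that of the 14 cardiomyocyte markers, with r = 0.81 over 20 libraries and 0.94 over the 13. That of electron transfer had r = 0.58 and 0.86. The regulators had r = 0.50 and 0.57, the shuttle 0.03 and 0.58, uptake 0.32 and 0.31, and the beta-oxidation enzymes -0.0057 and 0.60. The mean of all 37 genes had r = 0.37 and 0.76. The part of cardiomyocyte content in these levels was not tested.

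Without the rich libraries, the fold changes of the other genes described in full were as follows. In Dp3Tyb the log2 fold change was -0.04 for Fabp3, 0.12 for Cd36, -0.05 for Cpt1b, -0.04 for Cpt1a, 0.11 for Cpt2, -0.02 for Acadl, -0.07 for Acaa2 and 0.04 for Acads, and 0.03 for Etfb, -0.04 for Etfdh, -0.13 for Idh2, -0.08 for Idh3g and -0.0068 for Esrra. In Ts1Rhr it was -0.08 for Fabp3, -0.03 for Cpt1b, -0.02 for Cpt1a, 0.11 for Cpt2, -0.09 for Acadl, -0.05 for Acaa2 and 0.21 for Acads, and -0.02 for Etfb, -0.07 for Etfdh, -0.11 for Idh2 and -0.11 for Idh3g.

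The wider pathway was examined in 68 further genes of fatty acid activation, oxidation, pyruvate entry, the citric acid cycle and mitochondrial control, all of which passed the filter. None passed the limma test in either cohort, and 0 had an unadjusted p under 0.05. In Dp3Tyb hearts 45 of the 68 lay below WT (median log2 fold change -0.03), among them 17 of 20 genes of pyruvate entry and the citric acid cycle, and in Ts1Rhr hearts 29 of the 68 did (median 0.02). When the libraries rich in mitochondrial reads were left out, the counts were 38 and 43 of 68 (medians -0.0079 and -0.03). The median thus changed sign in Ts1Rhr. Of the 68, 0 and 2 then had an unadjusted limma p under 0.05, against 1175 of 14571 and 496 of 13929 genes in all. For pyruvate entry and the citric acid cycle in Dp3Tyb the count was then 12 of 20 (median -0.02, against -0.06 with them). The smallest p-values in Dp3Tyb belonged to Sirt1, a deacetylase that acts on PGC-1α, at -0.13 (SE 0.08, unadjusted p = 0.120), Sdha, the flavoprotein subunit of succinate dehydrogenase, at -0.10 (SE 0.07, unadjusted p = 0.167), and Pparg, a nuclear receptor of lipid storage, at 0.31 (SE 0.22, unadjusted p = 0.183), as log2 fold changes from limma. In Ts1Rhr they belonged to Sirt1 at -0.14 (SE 0.08, unadjusted p = 0.114), Gabpb1, a subunit of an activator of nuclear genes for respiration, at -0.24 (SE 0.14, unadjusted p = 0.117), and Mlycd, which degrades the CPT1 inhibitor malonyl-CoA, at 0.21 (SE 0.13, unadjusted p = 0.130), again from limma.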

How the data were processed

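The authors deposited 1 table of 48795 Ensembl genes in 20 libraries of poly(A)-selected RNA from E13.5 hearts. Its values are a signal, which the deposited table gives as reads divided by a library factor. The submitters' processing notes name Trimmomatic 0.36, STAR 2.5.2a, RSEM 1.2.31, DESeq, DESeq2 and GRCm38. The annotation and the use of strand in counting are not given in the sources used here. In every library 100% of the deposited values were whole multiples of 1 step (tolerance 1e-06 reads), and recomputed size factors matched these steps (largest relative difference 4e-15), so whole reads were recovered (6.60 to 19.6 M per library). Reads carry no molecular identifiers, so they are not independent molecules. No table column was left unused.

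Mutant and littermate groups of 5 were compared within each cohort with limma 3.58.1 (R 4.3.3) on log2(value + 1), with a trended robust prior, 2-sided, adjusted by Benjamini-Hochberg over all genes that reached a value of 10 in 5 or more libraries. Fold changes are on that scale and understate low genes. DESeq2 1.42.0, edgeR 4.0.16 and the other alternatives given in the closing section were fitted as well, and the fits were tested on simulated data. Symbols, transcript lengths and GC content came from GENCODE vM39 (91.3% of identifiers matched), positions and promoters from RefSeq on GRCm38.p6 (37 and 33 of the 37 genes). Summaries were made in Python 3.11.15. Replicate numbers only name libraries. Each library is labelled as a separate heart, and p-values measure the spread between these hearts only. The 37 genes, the lists and the motifs were chosen with earlier results of these data known. Values in every library are given for the most abundant gene of each subgroup, for the gene of largest fold change of each subgroup in each cohort, for genes called or without overlap, and for Cpt1a and Cpt1b. Hadha, Hadhb, Echs1, Esrrg and the ratios were chosen after their values were seen. Of 8 marker lists, covering heart, blood, lung and liver cell types, none held a gene called in either cohort.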

Additional observations from a re-analysis of the deposited data

Results flagged for a closer look

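Dixon's ratio was computed for the 37 genes in each of the 4 groups, 148 in all, and 28 values stood apart from the other 4 hearts of their group, where chance gives about 1 in 20. Of these, 23 were in libraries with over 10% mitochondrial reads. The genes share libraries, so these are not 28 separate events.

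WT replicate 5 of the Dp3Tyb cohort (19.5% mitochondrial reads) gave 13 of them. It was highest in its group for Fabp3 at 4040 against 2342 to 2614, Acadl at 7405 against 4792 to 5430, Acadm at 2954 against 2185 to 2404, Idh3b at 2968 against 2041 to 2205 and Idh3g at 3142 against 1950 to 2128 in the other 4 hearts. So it was for Sucla2 at 3544 against 2123 to 2419, Ppargc1a at 3852 against 1484 to 1729, Esrrg at 1897 against 1039 to 1281 and Tfam at 916 against 757 to 802. It was lowest for Slc25a20 at 440 against 539 to 574, Acadvl at 843 against 1346 to 1429, Echs1 at 711 against 1119 to 1213 and Esrra at 211 against 508 to 606.

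Dp3Tyb replicate 5 (15.5% mitochondrial reads) was highest for Ppargc1a at 2718 against 1330 to 1622 and lowest for Acads at 403 against 838 to 988, Echs1 at 727 against 1150 to 1261 and Esrra at 295 against 502 to 585. In the Ts1Rhr cohort, WT replicate 4 (17.2%) was highest for Idh3g at 2904 against 1994 to 2256 and Ppargc1a at 2949 against 1748 to 2095 and lowest for Idh3a at 2967 against 3591 to 3830 and Nrf1 at 402 against 486 to 519. Ts1Rhr replicate 2 (13.1%) was lowest for Hadh at 1802 against 2075 to 2176 and Nrf1 at 375 against 450 to 479.

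WT replicate 5 of the Ts1Rhr cohort held 5.84% mitochondrial reads and was highest for Cd36 at 2155 against 1221 to 1430, Acadm at 2683 against 2251 to 2354, Hadha at 6182 against 5123 to 5375, Idh2 at 14240 against 10894 to 11854 and Ppara at 130 against 38.9 to 51.7. It also had the highest summed erythroid marker level of the 20 libraries, and the part of this in these values was not tested.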

How the results depend on the processing

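None of the 37 genes was called in either cohort or in the difference between strains under any alternative run: pseudocounts of 0.1 and 8, no filter, TMM scaling, DESeq2, edgeR, array weights, the mitochondrial share as a covariate, a fit of all 20 libraries, only the Ts1Rhr hearts labelled without defects, no libraries over 10% mitochondrial reads, or without each heart in turn. Some of these runs called no gene of the whole table, so they say little of the 37. In Ts1Rhr these were the runs without libraries over 10% (0 of 13929) and with hearts labelled without defects (0 of 14652). For the difference between strains they were those hearts (0 of 15270), no filter (0 of 27090) and several runs without 1 heart. Unadjusted limma p was under 0.05 in Dp3Tyb for Cd36 with array weights and for Idh2 and Ppargc1a with the covariate. Of all 14763 genes, 1612 reached that level with array weights and 1626 with the covariate. In Ts1Rhr unadjusted limma p was under 0.05 for Cd36, Cpt2, Acadvl and Acads with array weights (2664 of 14867 genes in all). It was so for Nrf1 with the covariate (1119 of 14867) and Ppargc1a without the libraries over 10% (496 of 13929). Leaving out Ts1Rhr replicate 2 gave Cpt2 and Acads (1375 of 14761), and leaving out WT replicate 5 gave Cd36, Cpt2 and Acadvl (1660 of 14775). The hearts labelled without defects gave Acads, Ppargc1a and Esrrg (2418 of 14652). That fit set Ts1Rhr replicates 3 to 5 against all 5 WT hearts, of which replicates 1, 2 and 4 hold over 10% mitochondrial reads. These Ts1Rhr hearts hold less, so genotype and mitochondrial share cannot be told apart there. The smallest adjusted p of any of the 37 genes in these fits was 0.217, by limma with array weights in Ts1Rhr. Leaving out 1 heart moved the median over the 37 genes within -0.08 to -0.0053 for Dp3Tyb and 0.0094 to 0.07 for Ts1Rhr. For the difference between strains it stayed within -0.12 to -0.04. The median was -0.0072 in Dp3Tyb with array weights, 0.0067 in Ts1Rhr with the mitochondrial share as a covariate and -0.05 in Ts1Rhr without the libraries over 10%, where 2 WT hearts remain.

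Of 574 alternative log2 fold changes of the 14 genes given in full, 50 changed sign, and the cause was not tested. In Dp3Tyb array weights gave 0.022 for Fabp3 and -0.0017 for Esrra, and leaving out the libraries over 10% gave -0.0068 for Esrra. In Ts1Rhr, leaving out those libraries gave -0.078 for Cd36, -0.032 for Cpt1b, -0.052 for Acaa2, -0.023 for Etfb, -0.071 for Etfdh and -0.016 for Cpt1a. The covariate gave 0.046 for Fabp3, 0.034 for Acadl, -0.032 for Acaa2 and -0.0055 for Cpt1a, array weights 0.024 for Acadl, -0.010 for Etfdh and 0.0077 for Idh2, TMM 0.00016 for Acadl, and the hearts labelled without defects -0.0071 for Etfdh and 0.021 for Idh2. Without 1 heart the ranges that crossed 0 in Dp3Tyb were -0.18 to 0.063 for Fabp3, -0.12 to 0.019 for Cpt1b, -0.13 to 0.050 for Acadl, -0.19 to 0.29 for Acads, -0.015 to 0.073 for Etfb, -0.21 to 0.015 for Idh3g, -0.36 to 0.062 for Ppargc1a, -0.18 to 0.27 for Esrra and -0.052 to 0.013 for Cpt1a. In Ts1Rhr they were -0.088 to 0.049 for Fabp3, -0.060 to 0.041 for Acadl, -0.0041 to 0.15 for Acaa2, -0.0090 to 0.055 for Etfdh, -0.066 to 0.047 for Idh2 and -0.023 to 0.12 for Cpt1a. Ranges that kept their sign were 0.043 to 0.12 for Cd36, 0.064 to 0.15 for Cpt2, -0.16 to -0.024 for Acaa2, -0.12 to -0.021 for Etfdh and -0.18 to -0.090 for Idh2 in Dp3Tyb and 0.099 to 0.30 for Cd36, 0.041 to 0.22 for Cpt1b, 0.12 to 0.23 for Cpt2, 0.15 to 0.45 for Acads, 0.019 to 0.093 for Etfb, -0.19 to -0.050 for Idh3g, -0.31 to -0.11 for Ppargc1a and 0.16 to 0.50 for Esrra in Ts1Rhr. The lowest depth behind any of the 37 genes was 11 reads, for Ppara in the library of 6.60 M reads. No paired analysis was possible because the labels pair no hearts, and replicate numbers here follow the listing order only.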
